A study of Homo sapiens with 26 samples.

Results

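MSLN, CRIP1, PTN, LRRN4, FAM151A and ANXA8 are 6 genes that stood highest in PIK3CA-mutant LoVo cells over wild-type LoVo cells in DMSO, and they are described here across all 13 groups of the series. They were selected on the measured values themselves: among 12607 genes they held ranks 1 to 6 by the log2 difference of E545K over wild type in DMSO. All 6 of 18165 genes listed in the first deposited table and all 6 of 17734 in the second were found, and all 6 passed the filter on low values in each table. The label under which they were grouped, genes raised in mutants, held for E545K in DMSO by the choice itself. In conditioned medium LRRN4 stood lower in E545K than in wild type, at 3.40 against 5.735 FPKM. In H1047R cells MSLN and CRIP1 stood below wild type in DMSO, so the label held for the other mutant line in part.

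LoVo is a human colorectal cancer cell line. The PIK3CA product is the catalytic subunit of a kinase that phosphorylates membrane lipids, and E545K and H1047R are its recurrent activating mutations in tumours. Each mutation was introduced by lentivirus, and the series description names one line of each, number 3 for H1047R and number 2 for E545K, as the lines treated, so line and mutation cannot be told apart; whether the same lines were used in conditioned medium and with erlotinib is not stated. In the first table there are 18 libraries, 2 in each of 9 groups: H1047R, E545K and wild-type cells in medium conditioned by senescent cells, in 0.5 µM palbociclib for 72 hours, and in DMSO for 72 hours. Palbociclib inhibits CDK4 and CDK6 and was used to induce senescence. In the other table there are 8 libraries, 2 in each of 4 groups: H1047R and E545K cells in 0.5 µM palbociclib with 4 µM erlotinib for 48 hours, and in 0.5 µM palbociclib alone. Erlotinib inhibits the EGF receptor. The hours in conditioned medium, the genotype of the cells that conditioned it and how long the second table's palbociclib cells were treated are not given in the sources used here, and the labels also mention control cells collected at 48 hours. No label says that the libraries of a group came from separate cultures, so p-values measure the spread between these samples, which may be technical.

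Mesothelin, the product of MSLN, is a surface glycoprotein held in the membrane by a lipid anchor, made by mesothelial cells and by many carcinomas, where the mucin MUC16 binds it. CRIP1 is a small zinc-binding LIM-domain protein first described in the intestine, and PTN encodes pleiotrophin, a secreted heparin-binding growth factor whose closest relative is midkine (MDK). LRRN4 encodes a leucine-rich repeat membrane protein that is also used as a mesothelial marker, ANXA8 encodes an annexin, a protein that binds phospholipids in the presence of calcium, and FAM151A has relatives but no role given here. In GRCh38.p14, MSLN lies on chromosome 16 at 760734 to 768865, CRIP1 on chromosome 14 at 105486886 to 105488947, and PTN on chromosome 7 at 137227341 to 137343733. LRRN4 lies on chromosome 20 at 6040546 to 6054060, FAM151A on chromosome 1 at 54609181 to 54623525, and ANXA8 on chromosome 10 at 47467993 to 47991796. All 6 are protein-coding genes on different chromosomes.

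Levels are in FPKM, a measure of RNA per unit of gene length that is also divided by library size. Read depth is unknown, FPKM sums ran from 441643 to 524290 per library, and 11453 to 12157 genes reached 1 FPKM. Between replicates the root mean square SD of log2(FPKM + 1) was 0.232 in H1047R palbociclib, 0.170 in H1047R DMSO and 0.166 in H1047R palbociclib of the second table, against at most 0.116 in any other group. Groups with the same label did not always have the highest correlation with each other across the tables. Over 12314 genes the mean profile of E545K palbociclib in the second table correlated at 0.987 with E545K conditioned medium of the first and at 0.984 with E545K palbociclib of the first. That of H1047R palbociclib in the second table correlated at 0.968 with E545K palbociclib of the first and at 0.967 with H1047R palbociclib of the first. These H1047R values were near equal, and the replicates of H1047R palbociclib of the first table correlated with each other at 0.987. Within the first table wild type in conditioned medium correlated at 0.990 with H1047R in conditioned medium and at 0.938 with wild type in DMSO. The tables were normalized separately, so levels set side by side across them carry no test. Of 8 colon epithelial markers 7 averaged at least 1 FPKM in at least 1 group, with sums of 7016 to 16686 FPKM over libraries, while the 6 endothelial markers summed to at most 0.64 FPKM. The 6 leukocyte markers summed to 25.6 to 69.9 FPKM, with 1 or 2 averaging at least 1 FPKM in each group. The 8 fibroblast markers summed to 1.25 to 20.9 FPKM, highest in wild type in conditioned medium, and their part in the results was not tested. PIK3CA itself ranged from 4.38 to 7.80 FPKM in H1047R, from 7.37 to 16.3 in E545K and from 5.38 to 7.23 in wild-type libraries, without separating mutant from wild-type transcripts. RNA came from bulk cultures, where more expressing cells and more RNA per cell cannot be told apart.

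The promoter sequences of CRIP1 and PTN are shown because these genes, with MSLN, separated E545K from the other lines, and so that their start regions can be compared. The RefSeq table for GRCh38.p14 held CRIP1, PTN and FAM151A. Each window covers 250 bases before the gene start and the first 50 after it, read along the gene, with CG dinucleotides in capitals. CRIP1 is at chr14:105486636-105486935 on the plus strand and PTN at chr7:137343684-137343983 on the minus strand.
CRIP1: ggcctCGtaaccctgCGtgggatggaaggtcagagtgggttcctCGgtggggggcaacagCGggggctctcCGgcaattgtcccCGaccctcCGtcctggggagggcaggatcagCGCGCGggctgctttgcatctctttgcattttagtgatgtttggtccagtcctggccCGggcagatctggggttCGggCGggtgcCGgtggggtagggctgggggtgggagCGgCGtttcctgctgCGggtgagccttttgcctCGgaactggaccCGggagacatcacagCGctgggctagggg
PTN: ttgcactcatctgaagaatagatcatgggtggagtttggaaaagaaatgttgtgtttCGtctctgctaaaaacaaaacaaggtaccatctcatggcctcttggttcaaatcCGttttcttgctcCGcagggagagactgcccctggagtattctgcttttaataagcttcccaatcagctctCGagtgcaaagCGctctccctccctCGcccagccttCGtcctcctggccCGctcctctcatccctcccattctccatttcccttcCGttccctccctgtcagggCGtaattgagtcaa
CRIP1's window holds 20 CG dinucleotides at 66.3% G and C, and PTN's holds 10 at 50.3%. Over all 35116 promoter windows of the same length the medians were 14 and 58.7%, and 41.2% of windows held at least as many CG dinucleotides as CRIP1's. FAM151A's window held 4, a number reached by 75.5% of windows. Both strands of each window were searched for short motifs. The TEAD motif GGAATG is held by 14.0% of all windows and the FOXO motif GTAAACA by 3.42%. The AP-1 motif TGANTCA is held by 7.71%, the TCF motif ATCAAAG by 2.62%, and the letters TATAAA by 11.5%. The 3 windows gave 1 match, TGANTCA in PTN, starting at base 43 after the gene start. A match describes these letters and is not shown to be a binding site.

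The values that chose the genes are given without a test. In DMSO the log2 difference of E545K over wild type was 3.00 for MSLN, 2.58 for FAM151A, 2.55 for ANXA8, 2.54 for CRIP1, 2.50 for LRRN4 and 2.43 for PTN. The median of all genes in this comparison was 0.25, so the relative differences ran from 2.17 for PTN to 2.75 for MSLN. Just outside stood ANXA8L1 at 2.36, IL13RA2 at 2.24 and ICAM1 at 2.12. Set against the same wild-type libraries, H1047R in DMSO had FAM151A at rank 1 with 3.20, LRRN4 at rank 5 with 2.60 and ANXA8 at rank 47 with 2.01, beside a median of 0.26 over all genes. PTN differed by 0.34, MSLN by -0.19 and CRIP1 by -2.43, which put CRIP1 at rank 12593 of 12607. Relative to that median FAM151A, LRRN4 and ANXA8 differed by 2.94, 2.34 and 1.75, and PTN, MSLN and CRIP1 by 0.08, -0.46 and -2.69. The 6 genes thus fell into those high in both mutant lines and those high in E545K, a division made after the values were seen. Within wild-type cells, LRRN4, FAM151A and ANXA8 had the highest differences among the 6 members for conditioned medium over DMSO. On the log2 scale these were 2.27, 2.20 and 1.35, at ranks 27, 38 and 571 of all genes, whose median was 0.29. MSLN, CRIP1 and PTN differed by -0.44, 0.51 and 0.58 there. Relative to that median the 6 differences were 1.98, 1.90 and 1.05, and -0.73, 0.22 and 0.29, in the same order. The same wild-type DMSO libraries helped choose the members. Differences over them can be raised by that choice, so they add no support to the division.

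**Figure D1:**
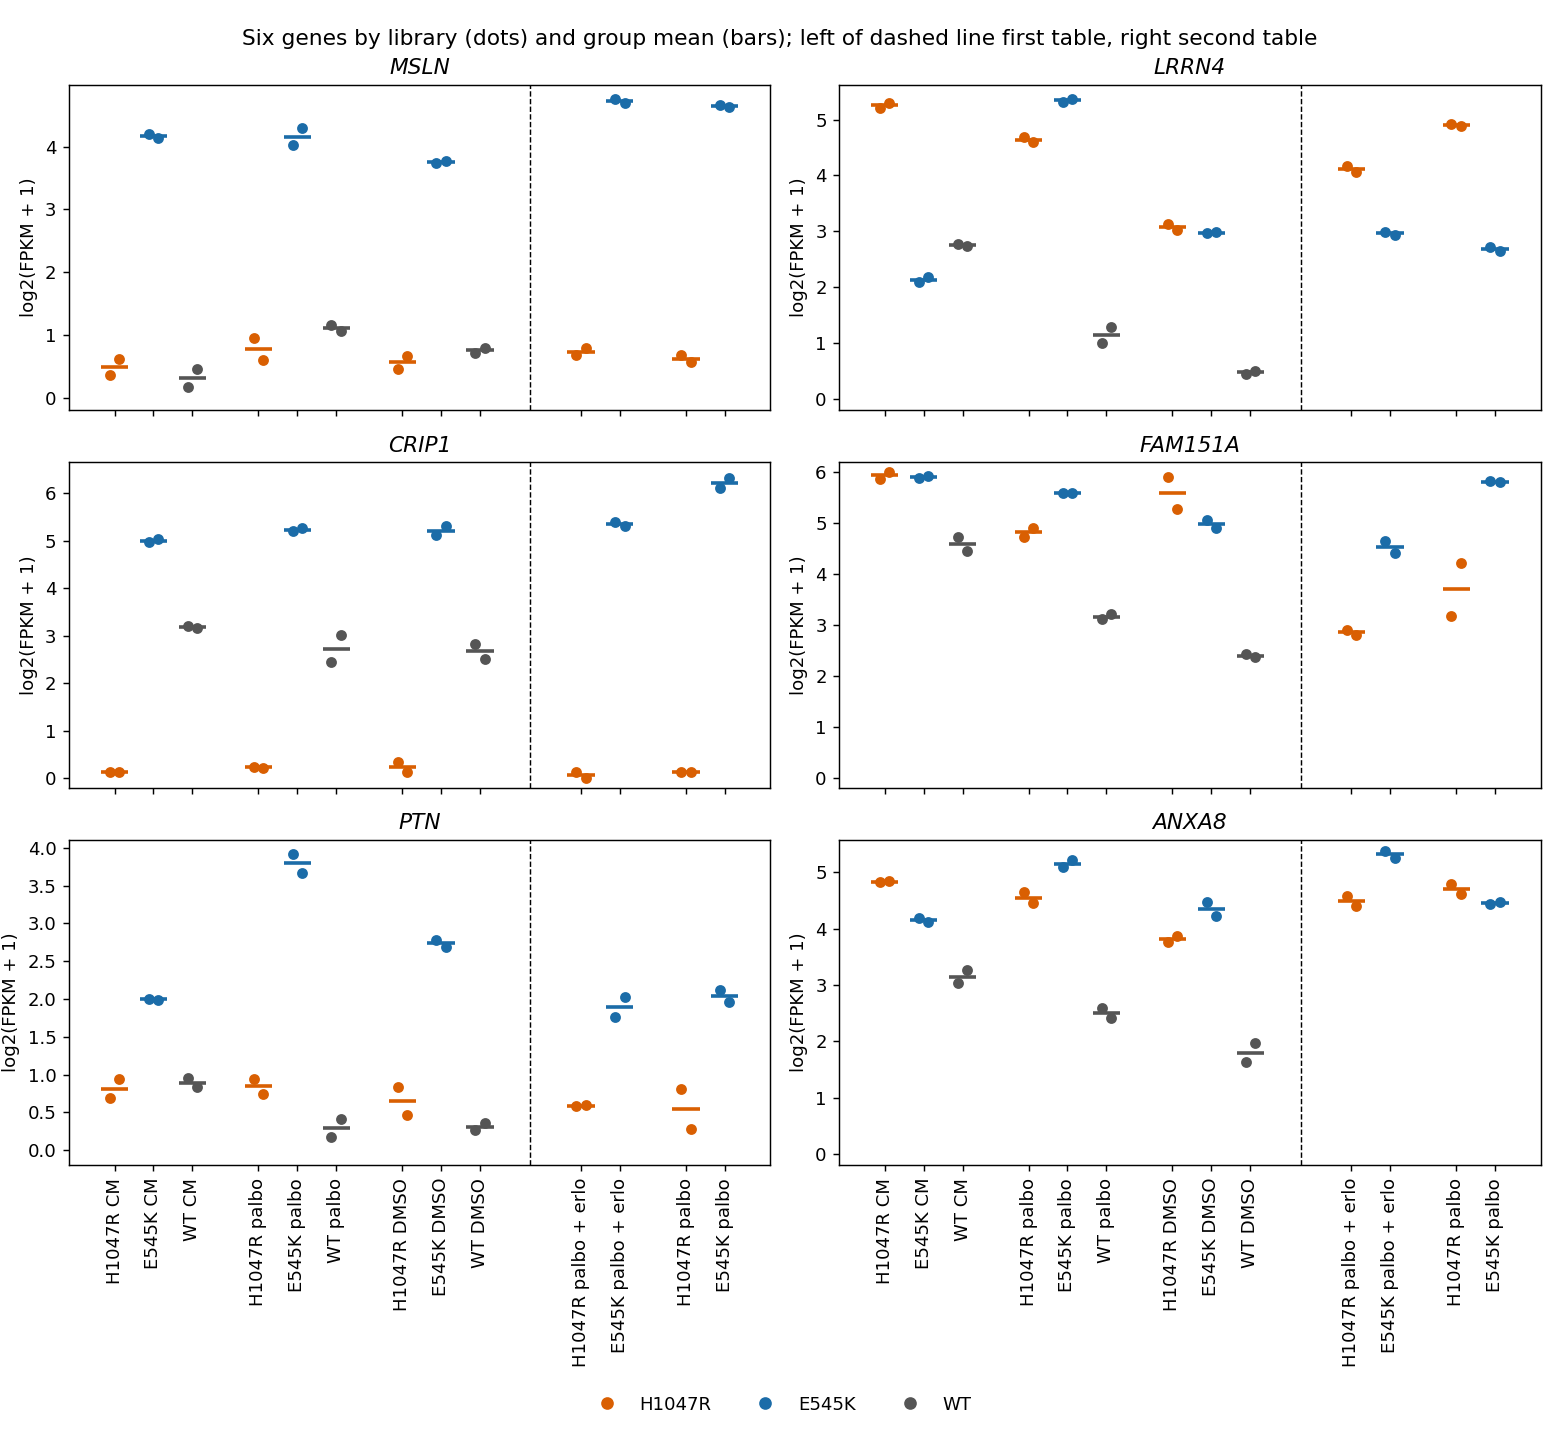
Each panel plots log2(FPKM + 1) of a gene, with dots for libraries and bars for group means, the first table left of the dashed line and the second to its right; CM is conditioned medium, palbo palbociclib and erlo erlotinib. MSLN, CRIP1 and PTN (left column) were high in E545K libraries, with E545K MSLN between 12.4 and 26.01 FPKM, while LRRN4, FAM151A and ANXA8 (right column) stood above wild type in both mutant lines in palbociclib and DMSO of the first table and varied with treatment, with LRRN4 in E545K in conditioned medium at 3.28 and 3.52 FPKM, below wild type.

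MSLN was high in every E545K library and low in all others. In conditioned medium it stood at 0.28 and 0.53 FPKM in H1047R, 17.4 and 16.6 in E545K, and 0.13 and 0.37 in wild type. In palbociclib it stood at 0.94 and 0.52 FPKM in H1047R, 15.3 and 18.6 in E545K, and 1.24 and 1.10 in wild type. The 2 E545K groups overlapped each other and lay more than 10 FPKM above the rest. In DMSO the libraries had 0.37 and 0.59 FPKM in H1047R, 12.4 and 12.6 in E545K, and 0.64 and 0.74 in wild type. In the second table MSLN stood at 0.60 and 0.73 FPKM in H1047R and 26.01 and 25.06 in E545K with erlotinib added, against 0.60 and 0.48 in H1047R and 24.5 and 23.9 in E545K in palbociclib alone. MSLN in E545K over wild type gave a log2 difference of 3.85 (SE 0.14) in conditioned medium and 3.04 (SE 0.14) in palbociclib, with limma adjusted p of 3.79e-11 and 3.40e-10. In H1047R over wild type MSLN differed by 0.17 in conditioned medium (adjusted p 0.566). In palbociclib it fell by 0.34 with an adjusted p of 0.0496, a call lost under 9 of 12 alternatives, with adjusted p between 0.00439 and 0.374. The groups H1047R DMSO, palbociclib and conditioned medium all lay between 0.28 and 0.94 FPKM, so mesothelin mRNA in this line was at or below the 1 FPKM used as the filter. Its partner MUC16 did not exceed 0.71 FPKM in any library and was not tested.

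CRIP1 placed each library with its genotype. It ranged from 0 to 0.26 FPKM over the 10 H1047R libraries, from 30.3 to 79.3 over the 10 E545K libraries, and from 4.43 to 8.15 over the 6 wild-type libraries. In conditioned medium CRIP1 stood at 0.09 FPKM in both H1047R libraries, at 30.3 and 31.7 in E545K, and at 8.15 and 7.99 in wild type. The 3 ranges did not overlap under any treatment. In palbociclib it stood at 0.18 and 0.17 FPKM in H1047R, 35.6 and 37.5 in E545K, and 4.43 and 7.03 in wild type. In DMSO it stood at 0.26 and 0.10, 33.6 and 38.4, and 6.13 and 4.67 FPKM in H1047R, E545K and wild type. CRIP1 was thus the only member whose differences from wild type were opposite in the mutant lines under every treatment of the first table. MSLN had opposite signs in DMSO and palbociclib, and LRRN4 and PTN in conditioned medium. H1047R over wild type gave a log2 difference of -3.06 in conditioned medium and -2.49 in palbociclib (SE 0.15 each; limma adjusted p 4.55e-09 and 5.96e-09). E545K over wild type gave 1.82 and 2.51 in conditioned medium and palbociclib (SE 0.15 each; limma adjusted p 3.39e-07 and 4.13e-09). Because H1047R lay near 0 FPKM, its differences depend on the added 1 FPKM and understate a ratio of levels. In the second table CRIP1 stood at 0.10 and 0 FPKM in H1047R and 41.3 and 38.8 in E545K with erlotinib added, against 0.09 in both H1047R libraries and 67.8 and 79.3 in the E545K libraries in palbociclib alone. The highest CRIP1 levels of the series were in E545K palbociclib of the second table, at 73.5 ± 8.13 FPKM (SD, n = 2), against 36.5 ± 1.36 in the group of the same label in the first (SD, n = 2).

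**Figure D2:**
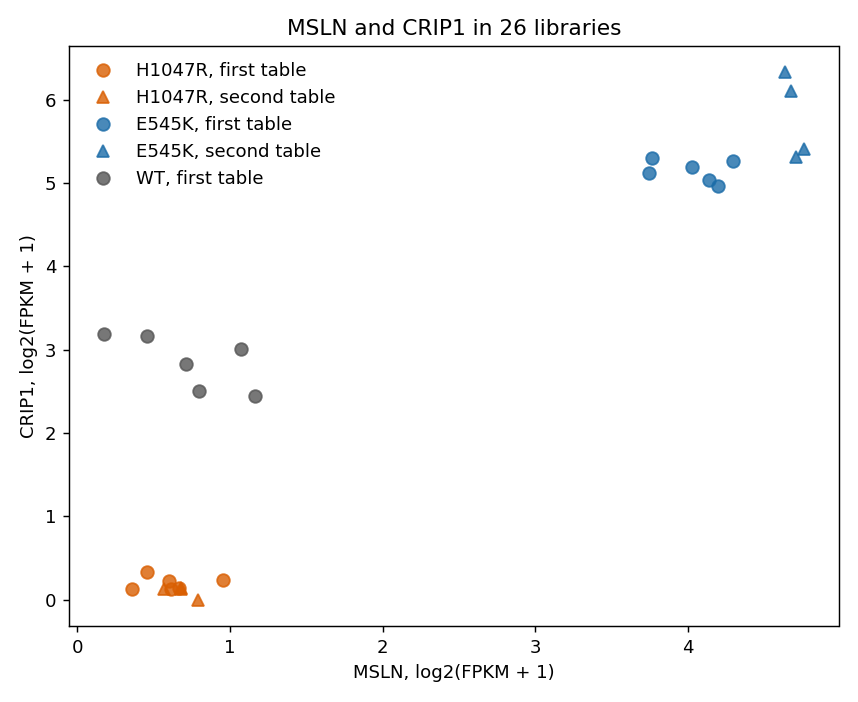
MSLN (x axis) against CRIP1 (y axis), both as log2(FPKM + 1), in the 26 libraries; circles are the first table and triangles the second. The libraries form separate clusters by line: H1047R low in both genes, E545K high in both, and wild type low in MSLN with CRIP1 at 4.43 to 8.15 FPKM.

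PTN was the third gene high in E545K, at lower levels and with more change between treatments. In conditioned medium it stood at 0.61 and 0.92 FPKM in H1047R, 3.00 and 2.98 in E545K, and 0.93 and 0.79 in wild type. In palbociclib it stood at 0.92 and 0.68 FPKM in H1047R, 14.1 and 11.7 in E545K, and 0.13 and 0.33 in wild type. In DMSO it stood at 0.78 and 0.38, 5.89 and 5.44, and 0.20 and 0.28 FPKM in H1047R, E545K and wild type. The 3 E545K groups did not overlap one another, and all lay above the H1047R and wild-type groups, which did not reach 1 FPKM. PTN in E545K over wild type gave a log2 difference of 1.10 in conditioned medium and 3.50 in palbociclib (SE 0.14 each; limma adjusted p 2.72e-05 and 7.91e-11). In H1047R over wild type PTN rose by 0.55 in palbociclib (SE 0.14, limma adjusted p 0.00318) and differed by -0.08 in conditioned medium (adjusted p 0.825), with every library in both comparisons under 1 FPKM. The PTN difference in palbociclib was 1.50 with a pseudocount of 0.1 and 0.85 on the TPM scale, and its call was lost with group weights (adjusted p 0.0513). PTN of the second table stood at 0.50 and 0.51 FPKM in H1047R and 2.38 and 3.08 in E545K with erlotinib added, against 0.76 and 0.21 in H1047R and 3.36 and 2.90 in E545K in palbociclib alone. E545K palbociclib of the second table thus had 3.13 ± 0.33 FPKM, against 12.9 ± 1.66 in the first (SD, n = 2 each).

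LRRN4 was raised in both mutant lines in palbociclib and varied widely between treatments. In conditioned medium it stood at 36.1 and 38.4 FPKM in H1047R, 3.28 and 3.52 in E545K, and 5.81 and 5.66 in wild type. In palbociclib it stood at 24.7 and 23.2 FPKM in H1047R, 38.8 and 40.5 in E545K, and 1.00 and 1.45 in wild type. In DMSO it stood at 7.81 and 7.09, 6.82 and 6.92, and 0.37 and 0.42 FPKM in H1047R, E545K and wild type. No 2 neighbouring groups of the first table overlapped, and E545K was the highest group in palbociclib but lay below wild type in conditioned medium. LRRN4 in E545K over wild type rose by 4.20 in palbociclib and fell by 0.61 in conditioned medium on the log2 scale (SE 0.09 each; limma adjusted p 2.38e-13 and 0.000156). In H1047R over wild type it rose by 3.49 in palbociclib and by 2.51 in conditioned medium (SE 0.09 each; limma adjusted p 2.17e-12 and 2.64e-10). LRRN4 of the second table stood at 16.9 and 15.7 FPKM in H1047R and 6.97 and 6.68 in E545K with erlotinib added, against 29.3 and 28.5 in H1047R and 5.59 and 5.26 in E545K in palbociclib alone. H1047R palbociclib had 28.9 ± 0.52 FPKM in the second table and 23.9 ± 1.07 in the first (SD, n = 2 each). E545K palbociclib had 5.43 ± 0.23 FPKM in the second table and 39.6 ± 1.16 in the first (SD, n = 2 each), so the order of the lines under the same label turned round between the tables. Whether the hours of treatment, the cultures or the labels differed between these libraries was not tested.

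FAM151A reached 63.2 FPKM, above the highest values of LRRN4 and ANXA8. In conditioned medium it stood at 57.0 and 63.2 FPKM in H1047R, 57.9 and 59.9 in E545K, and 25.6 and 20.7 in wild type. In palbociclib it stood at 25.4 and 28.9 FPKM in H1047R, 47.0 and 47.4 in E545K, and 7.60 and 8.23 in wild type. In DMSO it stood at 59.1 and 37.9, 32.1 and 28.8, and 4.35 and 4.14 FPKM in H1047R, E545K and wild type. The mutant lines overlapped each other in conditioned medium, H1047R DMSO had widely spaced replicates, and wild type was lowest under each treatment. FAM151A in H1047R over wild type rose by 1.35 in conditioned medium and 1.66 in palbociclib (SE 0.15 each; limma adjusted p 4.23e-05 and 3.01e-07). In E545K over wild type it rose by 1.32 in conditioned medium and 2.44 in palbociclib (SE 0.15 each; limma adjusted p 9.49e-06 and 5.92e-09). FAM151A of the second table stood at 6.47 and 6.00 FPKM in H1047R and 23.9 and 20.2 in E545K with erlotinib added, against 8.02 and 17.6 in H1047R and 55.7 and 54.5 in E545K in palbociclib alone. The H1047R palbociclib replicates of the second table lay far apart, and both were below those of the first.

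ANXA8 was higher in both mutant lines than in wild type in each comparison. In conditioned medium it stood at 27.3 and 27.7 FPKM in H1047R, 17.2 and 16.4 in E545K, and 7.18 and 8.60 in wild type. In palbociclib it stood at 24.0 and 21.0 FPKM in H1047R, 33.1 and 36.1 in E545K, and 5.02 and 4.32 in wild type. In DMSO it stood at 12.5 and 13.7, 21.1 and 17.8, and 2.09 and 2.93 FPKM in H1047R, E545K and wild type. H1047R palbociclib and E545K DMSO overlapped, and the 3 wild-type groups were the lowest of the 9. ANXA8 in H1047R over wild type rose by 1.69 in conditioned medium and 2.05 in palbociclib, and in E545K over wild type by 1.01 and 2.65 (SE 0.12 each; limma adjusted p at most 1.89e-05). ANXA8 of the second table stood at 22.9 and 20.2 FPKM in H1047R and 40.7 and 37.3 in E545K with erlotinib added, against 26.7 and 23.5 in H1047R and 20.8 and 21.3 in E545K in palbociclib alone. ANXA8 has a close copy, ANXA8L1 (chromosome 10, 46375776 to 46391778 in GRCh38.p14), and reads could be split between the 2 genes. Of 2313 windows of 50 bases in ANXA8L1 protein-coding transcripts of GENCODE, 80.8% were found unchanged in those of ANXA8, as were 45.5% of the 4110 windows of ANXA8 in those of ANXA8L1. ANXA8L1 ranged from 5.00 to 12.8 FPKM in H1047R, from 5.14 to 12.5 in E545K, and from 0 to 3.45 in wild-type libraries. The group means of ANXA8L1 and ANXA8 had r = 0.980 over the 9 groups of the first table and 0.556 over the 4 of the second, where in palbociclib ANXA8L1 averaged 11.4 FPKM in H1047R and 5.83 in E545K, and ANXA8 25.1 and 21.0. ANXA8L1 rose in both mutant lines over wild type too, by 1.70 and 2.02 in H1047R and by 1.32 and 2.31 in E545K, in conditioned medium and palbociclib (SE 0.21 each; limma adjusted p at most 0.000217).

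In conditioned medium, H1047R over wild type, 3 of the 6 genes were called higher (LRRN4, ANXA8, FAM151A) and 1 lower (CRIP1), beside 8.38% of all genes called and 3.06% called higher. In E545K over wild type 5 were called higher and LRRN4 lower, beside 33.9% called and 18.1% called higher. In palbociclib the background was far larger. In H1047R over wild type 4 were called higher and 2 lower, beside 62.5% of all genes called and 38.5% called higher. In E545K over wild type all 6 were called higher, beside 65.1% called and 45.7% called higher. The median of all genes in the E545K comparison in palbociclib was 0.20, and relative to it the 6 differences ran from 2.23 for FAM151A to 4.00 for LRRN4. The split of all calls depended on scaling. In E545K over wild type in palbociclib 70.2% of calls were higher, against 51.2% with quantile normalization and 43.7% with median-centring. In H1047R over wild type in palbociclib 61.5% became 49.9% and 45.1%, and in E545K over wild type in conditioned medium 53.5% became 46.7% and 38.3%. No called difference of the 6 genes changed sign under these scalings. The wild-type libraries are shared by the mutant comparisons within a treatment.

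**Figure D3:**
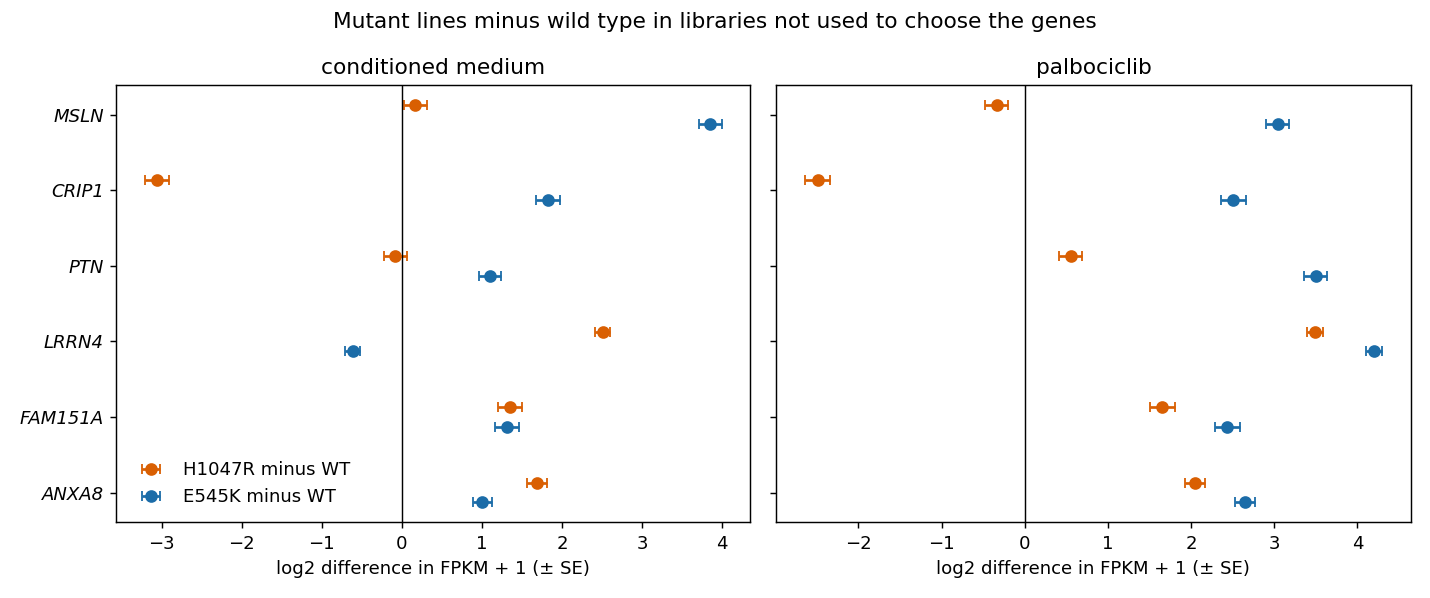
Log2 differences in FPKM + 1 of H1047R (orange) and E545K (blue) minus wild type, in conditioned medium (left) and palbociclib (right), with bars for the SE of the limma fit. CRIP1 differs in opposite directions in the lines, at -3.06 and 1.82 in conditioned medium, and LRRN4 in E545K is 4.20 in palbociclib and -0.61 in conditioned medium.

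The mutant lines were then compared directly, H1047R minus E545K. MSLN, CRIP1 and PTN were lower in H1047R in all 4 settings. The log2 differences of CRIP1 were -4.88 in conditioned medium and -5.00 in palbociclib in the first table, and -5.29 with erlotinib and -6.09 in palbociclib alone in the second (limma adjusted p at most 1.36e-08). Those of MSLN were -3.68, -3.38, -3.995 and -4.03 (adjusted p at most 1.99e-08), and those of PTN -1.18, -2.95, -1.30 and -1.50 (adjusted p at most 0.000406). LRRN4, FAM151A and ANXA8 had no common direction. LRRN4 was higher in H1047R in conditioned medium (3.12), with erlotinib (1.14) and in palbociclib of the second table (2.22), and lower in palbociclib of the first (-0.71; adjusted p of these 4 at most 0.000146). FAM151A was lower, with differences of -0.78 in palbociclib of the first table and of -1.67 with erlotinib and -2.12 without it in the second (adjusted p at most 0.00301), and differed by 0.03 (SE 0.15, adjusted p 0.930) in conditioned medium. ANXA8 was higher by 0.68 in conditioned medium (adjusted p 0.000988) and lower in palbociclib of the first table, at -0.60 (0.00438), a call lost with group weights (0.158) and without E545K palbociclib replicate 2 (0.0503). The second table had ANXA8 lower with erlotinib, at -0.83 (8.64e-05), and higher by 0.24 without it (0.0394), and the last call was lost under 6 of 13 alternatives. Of all genes 20.1% were called in conditioned medium and 16.3% in palbociclib in the first table, and 53.0% with erlotinib and 51.6% in palbociclib in the second. In palbociclib of the first table, where all 6 were called lower, the median of all genes was -0.10, and relative to it the differences ran from -4.90 for CRIP1 to -0.50 for ANXA8. The count of all genes called in that comparison was 2053, and it became 5129 without H1047R palbociclib replicate 1, 1159 without replicate 2 of that group, and 769 and 920 without E545K palbociclib replicates 1 and 2.

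Conditioned medium was compared with palbociclib within each line, comparisons that leave out the DMSO libraries. In H1047R FAM151A rose by 1.12 (SE 0.15) and LRRN4 by 0.62 (SE 0.09; limma adjusted p 6.39e-05 and 0.000199), and the other 4 genes were not called, beside 32.8% of all genes. In E545K LRRN4 fell by 3.21, PTN by 1.80 and ANXA8 by 1.00 (adjusted p 1.33e-11, 3.96e-07 and 4.11e-05), beside 20.1% of all genes. MSLN (0.01), CRIP1 (-0.23) and FAM151A (0.31) were not called in E545K, with SE of 0.14, 0.15 and 0.15. In wild type all 6 were called, beside 61.5% of all genes with a median of 0.14: LRRN4 rose by 1.61, FAM151A by 1.43, ANXA8 by 0.65, PTN by 0.60 and CRIP1 by 0.46, and MSLN fell by 0.80. Relative to that median these were 1.46, 1.29, 0.50, 0.46, 0.32 and -0.94, and the CRIP1 call was lost under 6 of 12 alternatives, with adjusted p up to 0.304. The responses themselves differed between lines. H1047R minus E545K gave response differences of 3.83 for LRRN4, 1.77 for PTN, 1.28 for ANXA8 and 0.81 for FAM151A (adjusted p 2.01e-10, 2.68e-05, 0.000147 and 0.0184), beside 15.5% of all genes. E545K minus wild type gave -4.81 for LRRN4, -2.40 for PTN, -1.65 for ANXA8, -1.12 for FAM151A, -0.69 for CRIP1 and 0.81 for MSLN (adjusted p at most 0.0147), beside 49.3% of all genes and a median of -0.20. Relative to that median these were -4.61, -2.20, -1.44, -0.91, -0.48 and 1.01.

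Adding erlotinib to palbociclib was called for 1 member in H1047R and 4 in E545K, with LRRN4 among them in both lines, in opposite directions. In H1047R LRRN4 fell by 0.79 (SE 0.07, limma adjusted p 0.000657) and no other member was called, beside 9.36% of all genes. FAM151A differed by -0.84 there, with an adjusted p of 0.0845 and the wide spacing of the palbociclib replicates given above. In E545K FAM151A fell by 1.29 (SE 0.27, adjusted p 0.0159) and CRIP1 by 0.86 (SE 0.09, 0.00112, lost with a pseudocount of 0.1 at 0.0656), while ANXA8 rose by 0.86 (SE 0.08, 0.000768) and LRRN4 by 0.28 (SE 0.07, 0.0230), beside 16.2% of all genes. The FAM151A and LRRN4 calls in E545K were lost without any 1 of the 4 E545K libraries, with adjusted p of up to 0.112 and 0.149. MSLN differed by 0.11 in H1047R and 0.08 in E545K (SE 0.08 each), and PTN by 0.04 and -0.15 (SE 0.17 each), and none of these was called. The response of H1047R minus that of E545K was called for LRRN4 at -1.08, ANXA8 at -1.07 and CRIP1 at 0.80 (adjusted p 0.00182, 0.00514 and 0.0229), beside 2.17% of all genes. FAM151A had a response difference of 0.45 (SE 0.38), which was not called (adjusted p 0.586). CRIP1 lay near 0 FPKM in H1047R with and without erlotinib, and its response call was lost under 10 of 15 alternatives, with adjusted p up to 0.595. The palbociclib libraries of a line enter both its own erlotinib contrast and the response difference, and the hours of palbociclib alone are not stated.

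**Figure D4:**
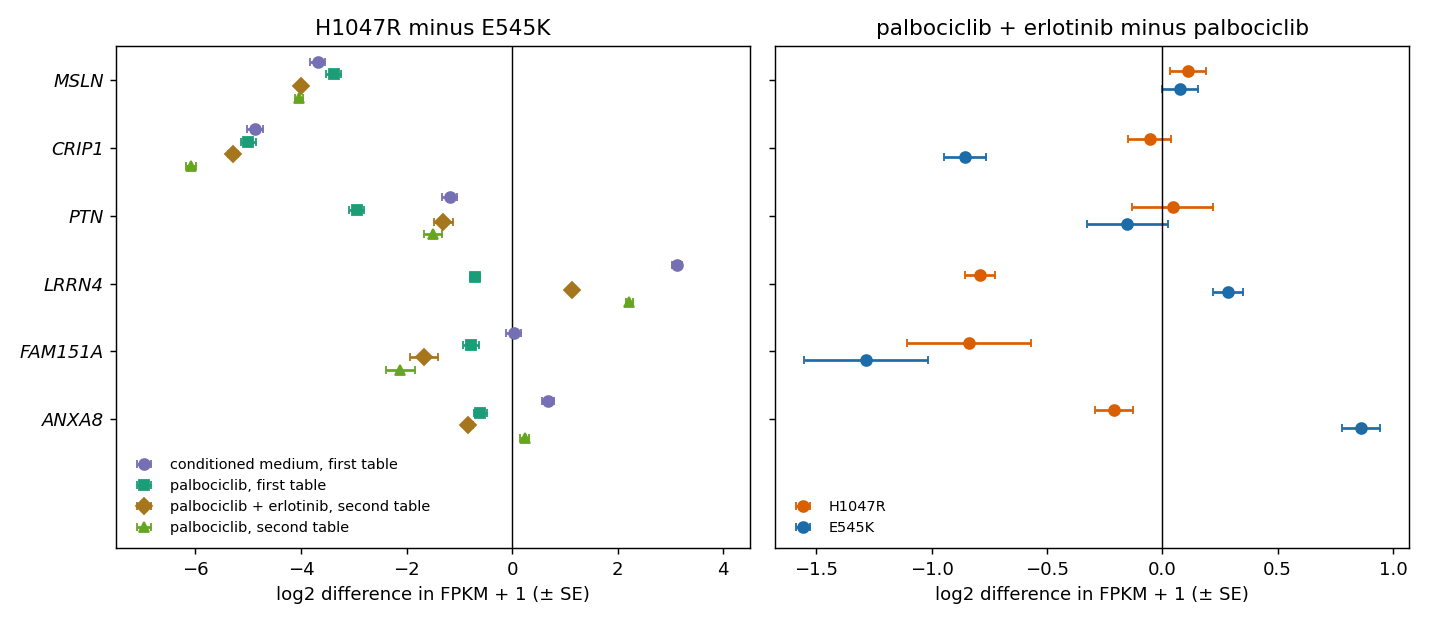
Log2 differences in FPKM + 1 with SE bars. Left, H1047R minus E545K in 4 settings, where MSLN, CRIP1 and PTN lie below 0 in each and LRRN4 lies at -0.71 in palbociclib of the first table and 2.22 in palbociclib of the second. Right, palbociclib with erlotinib minus palbociclib in H1047R (orange) and E545K (blue), where ANXA8 is -0.21 and 0.86.

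Relatives and partners of the 6 genes were counted in the 4 comparisons of a mutant line with wild type, to be read beside the shares of all genes given above. Of 10 listed mesothelin partners and relatives 7 were tested. In conditioned medium limma called 0 in H1047R (1 at an unadjusted p under 0.05) and 1 lower in E545K, and in palbociclib 1 was higher and 4 lower in H1047R, and 1 higher and 3 lower in E545K. The 1 higher was GPAA1, a subunit of the enzyme complex that attaches lipid anchors, which rose by 1.00 in H1047R and 1.05 in E545K in palbociclib (SE 0.12 each; limma adjusted p at most 4.81e-06). CD9, a tetraspanin, fell by 0.52 and 0.90 there (adjusted p at most 0.000275).

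Of 16 genes listed for pleiotrophin and its receptors 12 were tested, with 1 higher and 2 lower in H1047R and 2 higher and 2 lower in E545K in conditioned medium. In palbociclib 6 were higher in each line, with 3 lower in H1047R and 1 lower in E545K, and 6 of 12 is near the 38.5% and 45.7% of all genes called higher in H1047R and E545K. After median-centring these became 4 and 4 in H1047R and 3 and 2 in E545K. NCL, a nucleolar protein that pleiotrophin binds, rose by 0.90 in H1047R and 1.05 in E545K in palbociclib (SE 0.07 each), and PTPRB, a receptor phosphatase, by 0.72 and 0.89 (SE 0.14 each; adjusted p of these at most 0.00036). GPC2, a heparan sulfate proteoglycan, fell in all 4 mutant comparisons, by 0.45 to 0.88. MDK, the closest relative of PTN, was abundant, at 89.5 to 142 FPKM in H1047R, 112 to 173 in E545K and 121 to 150 in wild-type libraries, and was not called in any of the 4 (differences of -0.26 to 0.14, SE 0.13).

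Of 12 other annexins 10 were tested, with 2 higher and 1 lower in H1047R and 4 higher and 2 lower in E545K in conditioned medium, and in palbociclib 5 higher in H1047R and 7 higher in E545K with 0 lower in either (0 also at an unadjusted p under 0.05). After median-centring the palbociclib counts became 3 higher and 0 lower in H1047R, and 4 higher and 1 lower in E545K. ANXA4 rose in all 4 mutant comparisons, by 0.55 to 0.84, and ANXA6 fell in conditioned medium, by 0.30 in H1047R and 1.27 in E545K (adjusted p 0.0424 and 4.52e-08; the H1047R call was lost after median-centring). Of the LIM proteins related to CRIP1, CRIP2 and CSRP2 fell in all 4 mutant comparisons and CSRP1 rose, by 0.33 to 0.89, with its H1047R call in conditioned medium lost after median-centring (adjusted p 0.0929). CRIP2 fell by 1.15 and 1.39 in H1047R and by 1.29 and 0.68 in E545K, in conditioned medium and palbociclib (SE 0.15 each). In these treated cells the E545K differences of CRIP2 and CRIP1 had opposite signs, while in DMSO CRIP2 averaged 4.89 FPKM in H1047R, 15.4 in E545K and 9.06 in wild type, the same order as CRIP1. Of 5 LRRN and FAM151 relatives 2 were tested, and LRRN2 rose in palbociclib, by 1.21 in H1047R and 0.96 in E545K (SE 0.10 each; adjusted p at most 8.7e-07), but was not called in conditioned medium.

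Mesothelial markers other than MSLN and LRRN4 were scarce. Of 14, at most 3 averaged 1 FPKM in any group, the sums ran from 4.99 to 16.2 FPKM over libraries, and 0 of 3 tested were higher in any mutant comparison by the limma fit, with or without quantile normalization or median-centring; at an unadjusted p under 0.05, 1 was higher, in H1047R in conditioned medium. CALB2, the calcium-binding protein calretinin, was lower in all 4, by 0.53 in H1047R and 1.52 in E545K in conditioned medium and by 1.44 and 1.17 in palbociclib (SE 0.12 each; adjusted p at most 0.0136). Of 22 listed YAP and TEAD targets 18 were tested, with 0 higher (0 also at an unadjusted p under 0.05) and 2 lower in H1047R and 2 higher and 5 lower in E545K in conditioned medium. In palbociclib 6 were higher and 4 lower in H1047R and 10 higher and 3 lower in E545K, which became 5 and 5, and 6 and 5, after median-centring. Of all genes 38.5% were called higher in H1047R and 45.7% in E545K there, so the shares of the list called higher, 6 and 10 of 18, were near the background. Among them FJX1 rose in palbociclib, by 1.72 in H1047R and 2.27 in E545K (SE 0.17 each), and GADD45A fell in both lines, in E545K by 1.28 (SE 0.10). Of 16 enterocyte genes 3 were tested. In conditioned medium 0 were higher and 1 lower in H1047R by limma (0 higher also at an unadjusted p under 0.05), and 2 higher and 0 lower in E545K (0 lower also at an unadjusted p under 0.05), while in palbociclib 1 was higher and 1 lower in each line. CDX2, an intestinal transcription factor, rose in palbociclib by 1.05 in H1047R and 1.24 in E545K (SE 0.12 each; adjusted p at most 3.14e-06). The actin-bundling protein VIL1 fell in H1047R by 0.36 and AMN, part of the receptor for vitamin B12 uptake, fell in E545K by 0.37 (adjusted p 0.00664 and 0.0412).

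Neighbouring genes were examined as a description. For each member, 2 tested neighbours on either side gave 24 genes. In palbociclib E545K minus wild type ran from -0.84 to 1.48 over these neighbours, and 0 were as large as the difference of their member. H1047R minus E545K in palbociclib ran from -0.71 to 0.66, and 0 were as large. For E545K over wild type the members were chosen for large differences in DMSO, so a count of 0 was likely beforehand. For H1047R minus E545K, MSLN, CRIP1 and PTN already stood at ranks 12604, 12607 and 12596 of 12607 genes in DMSO. A count of 0 was thus likely for the neighbours of these genes too. CRIP2 lies 6716 bases from CRIP1 and TEDC1 908 bases, and in H1047R, E545K and wild type in palbociclib CRIP2 averaged 2.91, 5.37 and 9.18 FPKM and TEDC1 10.5, 11.1 and 3.36. CRLS1 lies 493 bases from LRRN4 and averaged 44.8, 46.3 and 34.9 FPKM there. In conditioned medium, sizes were compared without sign. There 3 neighbours differed at least as much as their member between E545K and wild type, and 4 between H1047R and E545K. The 3 were FERMT1 (1.28) and BMP2 (-0.78) beside LRRN4 (-0.61), and ZNF488 (-1.01) beside ANXA8 (1.01). Of the 4, MRPL37 (0.21), SSBP3 (0.26) and MROH7 (-0.10) stood beside FAM151A, which itself differed by 0.03. The other was ZNF488 (0.76) beside ANXA8 (0.68). FERMT1, 20785 bases from LRRN4, averaged 39.4 FPKM in H1047R, 78.3 in E545K and 31.7 in wild type in conditioned medium.

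For each member the 5 genes with the most similar pattern were found by Pearson's r of the group means over the 9 groups of the first table, which share lines and treatments. For MSLN they were ICAM1 (r = 0.992), GAGE1 (0.989), DOCK3 (0.985), PRR14 (0.976) and KRT80 (0.969). For CRIP1 they included DAZ2 (0.972), DAZ4 (0.961), PLA2G4A (0.932) and RTL8A (0.930), of which DAZ2 and DAZ4 are near-identical copies that can share reads. For PTN they were SLC36A4, NINL, MACROD2, CROT and SPRING1, at 0.927 to 0.959. The genes high in both lines had other neighbours in pattern. For LRRN4 they were ANKS1A, MGST3, SHTN1, TTLL6 and ERFE, at 0.932 to 0.939, and for FAM151A POU6F1, SMARCC2, CYFIP1, PDPR and DIDO1, at 0.976 to 0.983. For ANXA8 they were ANXA8L1 (0.980), ZSWIM9, ACVR1B, UNC13D and ACTR8, the last at 0.960. These patterns did not all carry over to the 4 groups of the second table, where r was -0.96 for MGST3 and -0.78 for TTLL6 with LRRN4, -0.57 for UNC13D and -0.04 for ACTR8 with ANXA8, and 0.16 for POU6F1 with FAM151A. The other like genes given here had r of 0.34 or more there. Among the members themselves r was 0.89 between MSLN and PTN, 0.84 between CRIP1 and MSLN and 0.91 between ANXA8 and LRRN4, but -0.21 between CRIP1 and LRRN4 and 0.13 between LRRN4 and MSLN. The DMSO groups, whose values chose and divided the members, are among the 9 groups, so these r are partly set by that choice. Over the 4 groups of the second table, too few for more than a description, r was 0.996 between MSLN and PTN and 0.993 between CRIP1 and MSLN, but -0.24 between ANXA8 and LRRN4 and -0.95 between LRRN4 and MSLN. FAM151A and LRRN4 had r = 0.74 over those 9 groups and -0.78 over these 4.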

How the data were processed

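RNA sequencing of LoVo cells in 26 libraries was used. The authors deposited FPKM values with 2 decimals, in 2 tables of 18 and 8 libraries, per the file headers; how the FPKM were made beyond this is not given in the sources used here. The build GRCh38 and the tools RSEM 1.3.1, DESeq2 1.4.5, Bowtie2 2.3.4.3 and HISAT2 2.1.0 are named, per the submitters' processing notes, without roles. Depth is unknown, so no counting interval is given.

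Values were transformed to log2(FPKM + 1), so differences of low genes are understated. A gene was tested in a table where 2 or more of its libraries had 1 FPKM or more, which left 12607 and 12463 genes. limma 3.58.1 in R 4.3.3 was fitted to each table apart with 1 coefficient per group, an intensity trend and the spread pooled over all groups. P-values, for both directions, were adjusted per comparison over all genes by the Benjamini-Hochberg procedure, with a threshold of 0.05. All adjusted p in the text are these. Differences that use DMSO libraries are descriptions, because DMSO values chose the members. Where the median of all genes lay over 0.1 from 0, differences of the members relative to it are given, as values or as a range. The differences of other genes are not relative to it. The fits were checked on simulated data. Alternatives were the pseudocount (0.1), no filter, quantile normalization, median-centring, a TPM scale, a replicate term, only the groups compared, each library left out, and, chosen after seeing the data, group weights, ANXA8 added to ANXA8L1, and both contrasts of the response to conditioned medium.

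The members and gene lists were chosen with earlier results of these data known. Named besides the members were, per list, up to 3 called genes with the highest absolute change between mutant lines and wild type, the relatives ANXA8L1, MUC16 and MDK, and the 5 genes most like each member, of which 1 is not reported here; neighbours were chosen by position, and the genes just outside the members by rank. For sequences, names and coordinates RefSeq tables of GRCh38.p14 and GENCODE transcripts were used, and Python 3.11.15 with matplotlib 3.10.9 made the figures.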

Additional observations from a re-analysis of the deposited data

Results flagged for a closer look

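Responses of a member that differed between lines by a test of the difference itself were set aside for a closer look. The response is conditioned medium minus palbociclib, or palbociclib with erlotinib minus palbociclib, on the log2(FPKM + 1) scale, and all adjusted p are from the limma fits.

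For conditioned medium, H1047R minus E545K, the response differed by 3.83 for LRRN4, 1.77 for PTN, 1.28 for ANXA8 and 0.81 for FAM151A (adjusted p 2.01e-10, 2.68e-05, 0.000147 and 0.0184), and the FAM151A call was lost under 5 of 16 alternatives. Of all genes 15.5% were called there. E545K minus wild type, the response differed by -4.81 for LRRN4, -2.40 for PTN, -1.65 for ANXA8, -1.12 for FAM151A, -0.69 for CRIP1 and 0.81 for MSLN (adjusted p 7.41e-12, 4.35e-07, 3.87e-06, 0.000588, 0.0147 and 0.00372). Of all genes 49.3% were called there, with a median of -0.20. Relative to that median the differences were -4.61, -2.20, -1.44, -0.91, -0.48 and 1.01, in the same order. The CRIP1 call was lost under 4 of 16 alternatives. LRRN4 in E545K stood at 3.40 FPKM in conditioned medium and 39.6 in palbociclib, and the second table's E545K palbociclib libraries, at 5.43 FPKM, lay nearer to the level in conditioned medium.

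For erlotinib, H1047R minus E545K, the response differed by -1.08 for LRRN4, -1.07 for ANXA8 and 0.80 for CRIP1 (adjusted p 0.00182, 0.00514 and 0.0229). Of all genes 2.17% were called in this comparison. The CRIP1 call was lost under 10 of 15 alternatives. CRIP1 in H1047R averaged 0.09 FPKM in palbociclib and 0.05 with erlotinib added.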

How the results depend on the processing

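Of 96 results for single members, 78 stayed on the same side of the threshold under every alternative run for them, and no call changed sign. Of 1224 values under an alternative 53 lost a call and 11 gained one. Read depth is unknown, and groups hold 2 libraries. The H1047R palbociclib and H1047R DMSO groups vary more than the others, while the fit assumes 1 spread per gene. Where a library was left out, the lone library of its group was assumed to vary like the other groups. Only the groups compared could not be run for the erlotinib response, which already uses all groups of its table.

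Counts of all genes called moved by over 1.5 times as follows, and the cause was not tested. With only the groups compared, H1047R over wild type in conditioned medium gave 1646 (1863 with group weights) in place of 1056, and H1047R over E545K gave 4432 (4778) in place of 2533 in conditioned medium and 356 (435) in place of 2053 in palbociclib. Conditioned medium over palbociclib gave 1063 (1675) in place of 4138 in H1047R and 4104 (4456) in place of 2540 in E545K, with 5 members called in place of 3 with only the groups compared, and the difference of these responses gave 1072 (1228) in place of 1958. Erlotinib gave 158 (476) in place of 1167 in H1047R and 3595 (3898) in place of 2020 in E545K. With no filter on low values erlotinib gave 686 genes in H1047R and its response difference 112 in place of 270.

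Leaving out each library gave 435 to 671 genes for H1047R over wild type and 2706 to 3123 (4270 with all) for E545K over wild type in conditioned medium. It gave 1454 to 1543 for H1047R over E545K in conditioned medium and 769 to 5129 in palbociclib, the last without H1047R palbociclib replicate 1. Conditioned medium over palbociclib gave 2183 to 6125 in H1047R, 1380 to 1680 in E545K, and 1200 to 4288 for the difference of these responses. Erlotinib gave 201 to 3790 in H1047R with 1 to 2 members called in place of 1, 514 to 677 in E545K with 2 to 2 members in place of 4, and 34 to 2076 for the response difference, highest without H1047R palbociclib replicate 1 of the second table.

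Replicate numbers showed no pairing common to all groups. The deviations of same-numbered libraries correlated between -0.56 and 0.55 over the first table's 36 combinations of groups and between -0.10 and 0.03 in the second. In the first table the median was 0.07, with 15 combinations over 0.1 and 6 under -0.1. Whether some of its groups were paired cannot be told from these values. With the replicate number as a block the erlotinib response difference was called in 141 genes in place of 270, the CRIP1 response had an adjusted p of 0.0511, and MSLN in H1047R over wild type in palbociclib 0.0501; the block changed no other call of a member.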
